A study of Mus musculus with 5 samples.

Results

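The miR-10, miR-99/100 and miR-125 families were followed in activated mouse helper T cells through 6 array probes, 2org-10a, 1org-10b, 1org-99b, 2org-100, 1org-125a and 1org-125b, of 171 microRNA probes and 178 probes in all. They were chosen by probe ID from what is known of these microRNAs in T cells, with no threshold on a measured value. Earlier results of these data were known when they were chosen. Each of 5 arrays carried activated RNA in one channel and RNA of unactivated (naive) cells in the other, both from CD4-positive T cells without CD25, a surface marker of regulatory T cells. Activation lasted overnight (1 array, activated RNA in Cy5), 3 days (2 arrays) or 10 days (2 arrays), and the arrays of each later time had opposite dyes. Strain, age, number of animals, the means of activation and whether a dye pair held separate RNA extracts are all unstated in the labels.

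MicroRNAs are short RNAs that pair with messenger RNAs, mainly through the seed near their 5′ end, and lower their translation and stability. The miR-10 genes lie in the Hox clusters. The miR-99/100 and miR-125 families share transcripts with let-7 members in several places of the genome, an ancient arrangement in which miR-125 is the counterpart of the lin-4 microRNA of worms. MiR-10a is known from mouse regulatory T cells, miR-125a from the same cells, and miR-125b from naive human helper T cells. Members of the miR-99/100 family are known to act on the growth kinase mTOR.

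The mature sequences of all 6 members were found in the RefSeq table for mouse (build GRCm38.p6) and are shown because the families differ by so few bases, with miR-99a as the near copy of miR-100. They are written 5′ to 3′, and capitals mark the seed, bases 2 to 8.
miR-10a: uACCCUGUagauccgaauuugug
miR-10b: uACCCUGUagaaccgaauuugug
miR-99b: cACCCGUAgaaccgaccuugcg
miR-100: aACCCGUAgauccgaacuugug
miR-99a: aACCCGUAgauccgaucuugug
miR-125a: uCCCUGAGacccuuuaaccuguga
miR-125b: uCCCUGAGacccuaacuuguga

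The 3 families have 3 different seeds, and each family shares its own. MiR-10a and miR-10b differ at 1 base, U12A (base of miR-10a, position from the 5′ end, base of miR-10b), and miR-100 and miR-99a at 1 base, A16U in the same notation. MiR-99b lies 4 substitutions from miR-100, and miR-125a lies 3 edits (substitutions, insertions or deletions) from miR-125b. Over the 7 sequences, pairs within a family were 1 to 4 edits apart and pairs between families 3 to 12 edits, the 3 being miR-10a and miR-100. The probe sequences were not used here, so how far a probe also binds its near copies was not tested.

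In that build, all on the plus strand, miR-10a lies at chr11:96317186-96317208 within the span of Hoxb3, and miR-10b at chr2:74726074-74726096 within those of Hoxd3 and Hoxd4. MiR-99b (chr17:17830194-17830215) and miR-125a (chr17:17830817-17830840) lie 601 bases apart within the span of Spaca6, with let-7e (chr17:17830366-17830387) between them. MiR-100 (chr9:41531437-41531458) and 1 copy of miR-125b (Mir125b-1, chr9:41581940-41581961) lie 50481 bases apart within the long noncoding RNA gene Mir100hg. A further copy of miR-125b (Mir125b-2, chr16:77646279-77646300) lies 47317 bases from miR-99a (chr16:77598940-77598961). Both copies give the same mature miR-125b, so probe 1org-125b cannot tell them apart. The annotation table named a gene for 3 members, miR-10a, miR-10b and miR-99b. Probes 2org-100, 1org-125a and 1org-125b were read by the number in their IDs.

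Values are deposited log ratios, read as log2 with Cy5 over Cy3, the usual order for such tables, which is likely but not stated. Over microRNA probes, and before any change of sign, the correlation between opposite-dye arrays of one time was r = -0.66 (day 3) and r = -0.43 (day 10), so the deposited values ran in one dye direction. Arrays with activated RNA in Cy3 were multiplied by -1, so positive means higher in activated cells, and every direction turns if Cy3 was the numerator. Array medians over microRNA probes were -1.75 overnight, 0.20 (Cy5) and 1.42 (Cy3) on the day 3 arrays, and -0.51 and -0.38 on those of day 10. Values are therefore also given after centring each array on its median. Depth has no counterpart on these arrays, detection calls were not used here, and the small number of arrays limits the precision. A ratio gives no level, so the labelled cell type could not be checked against its markers. In bulk RNA, fewer cells of a type and less RNA per cell cannot be told apart.

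At day 3 the 6 members lay near the middle of the microRNA probes, while overnight and at day 10 single members lay toward the edges, with miR-10a the lowest probe overnight (4th lowest with the dye effect taken off, as described below) and 2org-100 the 4th lowest at day 10. Their median was -2.14 overnight, 0.86 at day 3 and -0.68 at day 10, against -1.75, 0.83 and -0.56 over all 171 probes. At day 3 the pair means of all 6 were above 0, as were those of 131 of all 171 probes. The 6 ran from 0.12 for 2org-100 to 1.03 for 1org-125b. Of these, 5 lay between the first and the third quartile of all probes (0.24 and 1.36). At day 10 they ran from -1.50 for 2org-100 to 0.31 for 1org-125a, and 3 of the 6 lay between the quartiles (-0.87 and -0.07). No member had the same sign on all 5 arrays, where 10.5% of all probes were below 0 and 4.09% above 0 on every array. Taken over the 3 times, no member passed limma's test against 0 (Benjamini-Hochberg adjusted p from 0.852 to 0.932 as deposited and from 0.54 to 0.889 after centring). In that test 0.0% of all probes were called in either direction. At an unadjusted threshold of 0.05, 3 were higher and 8 lower without centring, and with it 10 were higher and 1 lower; none of these was a member.

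**Figure D1:**
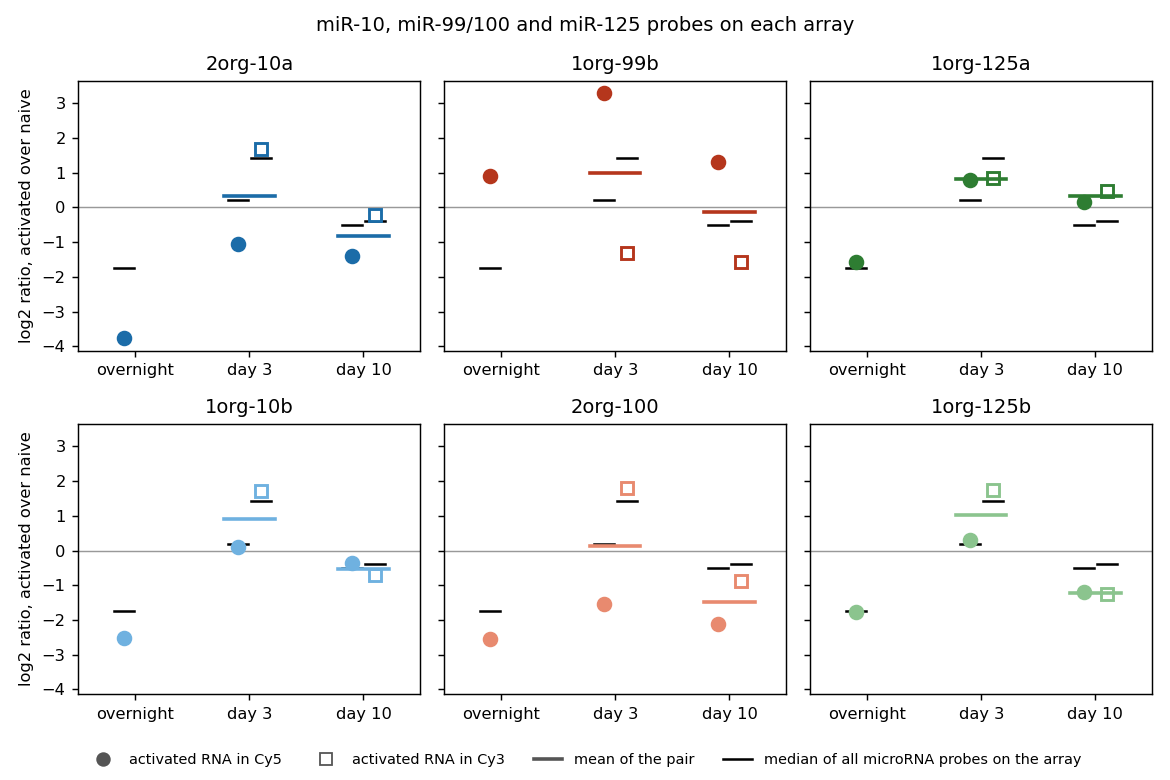
Log2 ratios of activated over naive cells (y axis) for the 6 members at the 3 activation times (x axis), 1 point per array, with filled circles for activated RNA in Cy5 and open squares for Cy3; coloured lines are pair means and black lines the array medians. 1org-99b sits on opposite sides of 0 with the 2 dyes at days 3 and 10, whereas the points of 1org-125a lie close together at both days.

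The miR-10 pair gave low values overnight. Probe 2org-10a was at -3.78 overnight, at -1.04 (activated RNA in Cy5) and 1.69 (Cy3) at day 3, and at -1.40 and -0.23 at day 10. Probe 1org-10b was at -2.51 overnight, at 0.09 and 1.73 at day 3, and at -0.37 and -0.72 at day 10. The arrays of miR-10a therefore lay on both sides of 0 at day 3, while those of miR-10b were above 0 at day 3 and below 0 at day 10. As pair means (± is the distance of either array from the mean, n = 2 arrays, and is no standard error), miR-10a was at 0.32 ± 1.37 and miR-10b at 0.91 ± 0.82 at day 3. At day 10 miR-10a was at -0.81 ± 0.59 and miR-10b at -0.54 ± 0.17. After centring miR-10a was at -0.49 (day 3) and -0.37 (day 10) and miR-10b at 0.10 and -0.10. Neither was 2-fold from naive cells at either day, as deposited or centred.

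The overnight value of miR-10a ranked 1st from the bottom among the 171 probes and that of miR-10b 18th, or 4th and 27th with the dye effect of the later pairs taken off. Both were at least 2-fold lower, as were 2org-100 (-2.55), 1org-125a (-1.57) and 1org-125b (-1.77), which makes 5 of 6 members where 73.1% of all probes were called lower. The exception was 1org-99b at 0.91, and no member was called higher (4.09% of all probes). After centring 1 member was lower, miR-10a at -2.03 (4.09% of all probes), and 1 was higher, miR-99b at 2.66 (21.6% of all probes). This array had no dye swap, and both of these probes had large dye effects at the later times, described below. With the mean dye effect of the 2 pairs taken off, miR-10a was at -2.80, miR-10b at -2.19, 1org-125a at -1.47, 1org-125b at -1.42, 2org-100 at -1.40 and miR-99b at -0.96. All 6 were then below 0, as were 150 of all 171 probes. The 6 spanned 1.84, against 4.69 as measured, around medians of -1.45 for the members and -1.42 for all probes. After centring as well, miR-10a was the 1 member at least 2-fold from naive cells, at -1.38, where 7.6% of all probes were called lower. In limma over 5 arrays, fitted with time and dye terms, miR-10a (adjusted p = 0.00384) and miR-10b (adjusted p = 0.0132) were lower overnight with values as deposited, beside 38.6% of all probes. The overnight value in this fit is that of 1 array, and its p takes the spread from the other arrays and from all probes together, so it does not measure variation overnight. Neither passed after centring (adjusted p = 0.154 and 0.545) or with arrays scaled to the same median absolute log ratio (adjusted p = 0.605 for both).

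**Figure D2:**
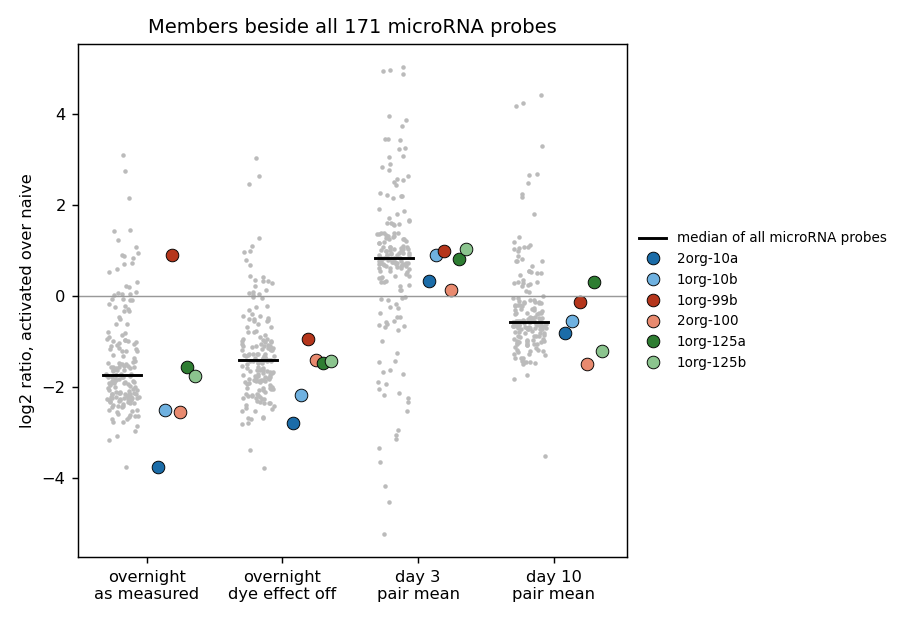
Log2 ratios of activated over naive cells (y axis) for each microRNA probe (grey) and the 6 members (coloured), overnight as measured, overnight with the dye effect of the 2 later pairs taken off, and as pair means at days 3 and 10; black lines are medians of all probes. Overnight the members spread over 4.69 as measured and over 1.84 with the dye effect off.

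In the miR-99/100 family the values differed with the dye. Probe 1org-99b was at 0.91 overnight, at 3.28 (activated RNA in Cy5) and -1.31 (Cy3) at day 3, and at 1.31 and -1.58 at day 10. It was positive on all 3 arrays with activated RNA in Cy5 and negative on both with it in Cy3. Probe 2org-100 was at -2.55 overnight, at -1.55 and 1.80 at day 3, and at -2.12 and -0.87 at day 10. Here the Cy5 arrays were the lower ones at both later times, and both day 10 arrays were below 0. At day 3, 3 of 6 members had opposite signs on the 2 arrays (miR-10a, miR-99b and 2org-100) where 28.1% of all probes did, and at day 10 miR-99b alone of the 6 did, where 22.8% of all probes did.

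The pair means, in which the dye effect cancels, were 0.99 ± 2.29 for miR-99b and 0.12 ± 1.67 for 2org-100 at day 3. At day 10 they were -0.14 ± 1.45 for miR-99b and -1.50 ± 0.62 for 2org-100. The day 10 value of 2org-100 ranked 4th from the bottom among all probes. It was at least 2-fold lower on the size rule as deposited and after centring (-1.05), and limma over 5 arrays called it lower in both settings (adjusted p = 0.0126 as deposited beside 11.7% of all probes lower, and 0.0434 after centring beside 2.92%). With arrays scaled to the same median absolute log ratio it was at -2.07 and did not pass (adjusted p = 0.0961). Limma over 5 arrays gave every probe the same standard error as deposited (0.45) and after centring (0.38), but not after scaling. With terms for 3 times and for dye, the only spread left in its p-values is how far the dye effect differed between days 3 and 10. That spread is possibly technical, and it does not measure variation between replicates at any time. On the size rule 4.09% of all probes were lower and 14.6% higher at day 10 after centring.

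The family has further probes outside the 6. Probe 1org-99a, annotated as miR-99a, 1 base from miR-100, was at -1.90 overnight, at 1.23 and 1.10 at day 3, and at -0.21 and -0.57 at day 10. Its dye effects were 0.06 and 0.18, unlike those of 2org-100. Probe 2org-99, named after its values were seen, was at -1.92 overnight, at 1.42 and 1.94 at day 3, and at -0.63 and -0.66 at day 10. Both had pair means at least 2-fold above naive cells at day 3 (1.17 for 1org-99a, 1.68 for 2org-99), and after centring both were under 2-fold (0.35 and 0.87).

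The dye effect, the distance of the array with activated RNA in Cy5 from the mean of its pair, also holds any offset between the arrays of a pair, and its median over all probes was -0.44 at day 3 and 0.02 at day 10. For miR-99b it was 2.29 at day 3 and 1.45 at day 10, which ranked 167th and 164th of 171 from the bottom. For 2org-100 it was -1.67 and -0.62, ranking 2nd and 19th, and for miR-10a -1.37 and -0.59, ranking 6th and 22nd. For miR-10b it was -0.82 and 0.17, for 1org-125b -0.72 and 0.02, and for 1org-125a -0.04 and -0.16. MiR-99b was the 1 member with an effect of at least 1 in size at both days, positive as in 3.51% of all probes. The dye term of limma over 5 arrays passed for miR-99b (1.87, adjusted p = 6.26e-07), 2org-100 (-1.15, adjusted p = 0.00466) and miR-10a (-0.98, adjusted p = 0.0225). After centring it passed for miR-99b (2.21, adjusted p = 2.98e-12) and 2org-100 (-0.81, adjusted p = 0.0242) but not for miR-10a (-0.64, adjusted p = 0.114), and after scaling for miR-99b alone of the 6 (2.18, adjusted p = 0.0358). Across all 171 probes, which are not independent replicates, the dye effects of the 2 days correlated at r = 0.76.

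**Figure D3:**
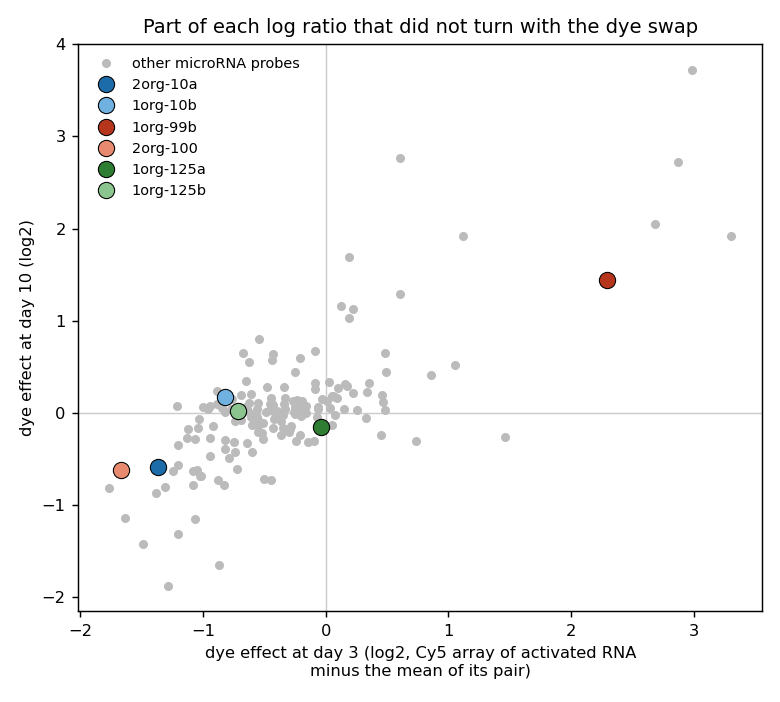
Dye effect at day 3 (x axis) and at day 10 (y axis), in log2 units, for the 6 members (coloured) and the other microRNA probes (grey). 1org-99b lies at 2.29 and 1.45, at the upper right, and 2org-100 (-1.67 and -0.62) and 2org-10a (-1.37 and -0.59) lie at the lower left.

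The dye effects of the miR-125 pair were smaller than those of miR-99b, 2org-100 and miR-10a. Probe 1org-125a was at -1.57 overnight, at 0.78 (Cy5) and 0.85 (Cy3) at day 3, and at 0.16 and 0.47 at day 10. Probe 1org-125b was at -1.77 overnight, at 0.32 and 1.75 at day 3, and at -1.20 and -1.24 at day 10. Both were below 0 overnight and above 0 on both day 3 arrays, and they took opposite signs at day 10. The pair means of 1org-125a were 0.82 ± 0.04 at day 3 and 0.31 ± 0.16 at day 10, and those of 1org-125b 1.03 ± 0.72 and -1.22 ± 0.02. A small ± here says that the probe turned with the dye swap, not that its mean is more precise.

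Probe 1org-125b was the 1 member called higher at day 3, where 38.0% of all probes were called higher and 12.9% lower, and no member was lower. After centring it was at 0.22, and no member was called at day 3 (15.2% of all probes higher and 19.9% lower). At day 10, 2 of 6 members were lower, 1org-125b and 2org-100, where 17.0% of all probes were lower, and none was higher (9.94%). After centring 1org-125b was at -0.77, under 2-fold, while 2org-100 stayed lower. Limma over 5 arrays made the same calls for 1org-125b, higher at day 3 (adjusted p = 0.0442, beside 39.2% of all probes) and lower at day 10 (adjusted p = 0.0434), and neither held after centring (adjusted p = 0.803 and 0.164) or scaling (adjusted p = 0.378 and 0.101). Probe 1org-125a was under 2-fold at both days, and after centring stood at 0.01 (day 3) and 0.76 (day 10).

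At day 10 against day 3, all 6 pair means were lower, as were those of 130 of all 171 probes. The 6 were lower by 0.50 for 1org-125a up to 2.25 for 1org-125b. Their median difference was -1.29, against -1.22 for all probes. The size rule (means at least 2-fold apart with no overlap of the pairs) called 2 of 6 members lower, 1org-125b (-1.22 at day 10, 1.03 at day 3) and miR-10b (-0.54 at day 10, 0.91 at day 3), where 41.5% of all probes were lower and 12.9% higher. The pairs of miR-10a, miR-99b and 2org-100 overlapped, at differences of -1.14, -1.13 and -1.62. Matched by dye, a comparison chosen after seeing the data, day 10 minus day 3 was -0.36 (Cy5) and -1.92 (Cy3) for miR-10a, -1.98 and -0.28 for miR-99b, and -0.57 and -2.67 for 2org-100. All 6 members had both matched differences below 0, as did at least 59.1% of all probes. In 5 of the 6, all but 1org-125a, these averaged at least 2-fold lower, where 59.1% of all probes did and 12.9% were higher. After centring none of the 6 was called in this way (15.8% of all probes lower and 29.2% higher). The arrays of 1org-125b and miR-10b were below 0 at day 10 and above 0 at day 3, a pattern found in 24.6% of all probes. After centring 1org-125b alone of the 6 had this pattern, as did 7.02% of all probes. On the size rule no member was called after centring (28.1% of all probes higher and 13.5% lower), with differences from -0.99 for 1org-125b to 0.75 for 1org-125a. In limma over 5 arrays 3 members were lower at day 10, 1org-125b (adjusted p = 0.00218), 2org-100 (adjusted p = 0.0251) and miR-10b (adjusted p = 0.0444), where 43.9% of all probes were lower. After centring the adjusted p-values of the 6 ran from 0.146 to 0.91, and after scaling from 0.092 to 0.846. Exact permutation of 2 arrays against 2 cannot give a p below 0.333 and was not used.

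Differences between members on the same array do not depend on centring, and 5 pairs were compared in this way at days 3 and 10. Of the 10 differences, 1 reached 2-fold and kept its sign on both arrays. Probe 1org-125a stood above 1org-125b by 1.36 and 1.71 at day 10 (mean 1.53), while at day 3 the difference was 0.46 and -0.90 (mean -0.22) and overnight 0.21. At day 10, 33.6% of all pairs of microRNA probes differed by this rule, and at day 3 53.7%. MiR-10a minus miR-10b was -1.26 overnight, -1.13 and -0.04 on the day 3 arrays, and -1.03 and 0.49 on those of day 10, with means of -0.59 and -0.27.

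Probes of microRNAs from a shared cluster gave no difference by the same rule. MiR-99b minus 1org-125a was 2.48 overnight, 2.51 and -2.16 on the day 3 arrays, and 1.15 and -2.05 on those of day 10. It was positive on every array with activated RNA in Cy5 and negative on both with it in Cy3. Its pair means were 0.17 at day 3 and -0.45 at day 10, and overnight it was 0.51 with the dye effect off. Probe 2org-100 minus 1org-125b was -0.78 overnight, -1.86 and 0.05 on the day 3 arrays, and -0.92 and 0.37 on those of day 10, with means of -0.91 and -0.28. Within the miR-99/100 family, miR-99b minus 2org-100 was 3.46 overnight, 4.83 and -3.10 on the day 3 arrays, and 3.43 and -0.71 on those of day 10. Its means of 0.86 and 1.36 stood on arrays of opposite sign.

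**Figure D4:**
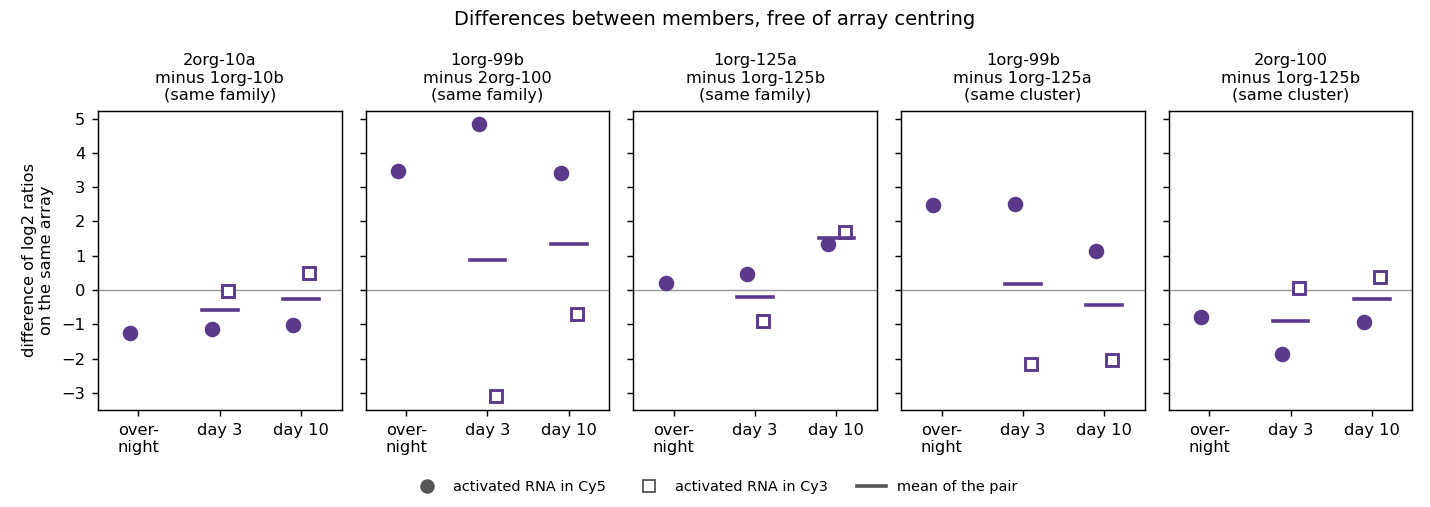
Difference between 2 members' log2 ratios on the same array (y axis) at the 3 times (x axis) for 3 pairs of 1 family and 2 pairs of 1 transcript cluster; filled circles are arrays with activated RNA in Cy5, open squares those with it in Cy3, and lines are pair means. Only 1org-125a minus 1org-125b at day 10 has a mean past 1 with both arrays on the same side of 0.

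The let-7 partners of the clusters had lower day 3 means than the members. Probe 1org-7e, numbered as let-7e between miR-99b and miR-125a, was at -2.30 overnight, at -1.31 and 0.06 at day 3, and at -0.18 and -0.57 at day 10. Probes 1org-7a and 1org-7c, whose microRNAs have cluster copies beside miR-100 and miR-99a, had day 3 means of -2.13 and -3.66. Of the 4 cluster partner probes (these 3 and 1org-99a), 1 was higher and 2 lower at day 3 around a median of -1.38, against 0.83 for all probes, and 0 higher and 1 lower at day 10 around -0.38. The shares of all probes were 38.0% higher and 12.9% lower at day 3 and 9.94% and 17.0% at day 10. After centring 0 of the 4 were higher and 3 lower at day 3, and 1 was lower at day 10. Let-7a and let-7c also come from other genes, which these probes cannot tell apart. The Hox cluster microRNA probe 1org-196 was at -1.03 overnight, at 3.27 and 1.16 at day 3 (mean 2.21) and at 0.18 and -0.85 at day 10 (mean -0.34).

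Of 4 probes for microRNAs linked to regulatory T cells, which activated conventional cells also use, 3 were higher and none lower at day 3 around a median of 3.66, and 1 was higher and 1 lower at day 10 around 0.44. After centring 3 were higher at day 3 (15.2% of all probes, and 38.0% as deposited), and 1 was higher and none lower at day 10 (14.6% and 4.09% of all probes, and 9.94% and 17.0% as deposited). The highest at day 3 were miR-31 (1org-31, 4.99) and miR-155 (1org-155, 4.88), known for its part in lymphocyte activation, beside miR-21 (1org-21, 2.45) and 1org-146 (0.70). Of the members known from regulatory T cells, miR-10a was at 0.32 at day 3 (-1.04 and 1.69 on the arrays). The other, 1org-125a, was at 0.82 (0.78 and 0.85), where the median of all probes was 0.83.

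All 4 listed T lymphocyte probes were lower at day 3 (median -3.36), as deposited and after centring, where 12.9% and 19.9% of all probes were. They were 1org-150 (-5.24), 1org-181 (-4.53), 1org-142-as (-2.19) and 1org-142-s (-1.43). The listed microRNAs are not all particular to T lymphocytes. Probes of these families outside the list were at -2.16 and -1.73 (2org-181b) and at -2.82 and -1.28 (2org-142*) on the day 3 arrays. Probe 2org-181c had opposite signs there, at -1.78 and 0.30. At day 10, 3 of the 4 were lower as deposited (median -1.32, beside 17.0% of all probes) and 1 after centring (4.09%). Of 7 probes for stromal, endothelial and muscle cells, in which miR-10b, miR-100 and miR-125b are known to be high, 3 were higher at day 3 as deposited (median 0.83, beside 38.0% of all probes) and 1 after centring (15.2%). That 1 was 2org-214, at 3.11 overnight, 4.96 at day 3 and -1.75 at day 10, and the others at day 3 were 1org-145 (1.26), 1org-143 (1.08), 1org-133 (0.83), 1org-206 (0.83), 2org-199a (0.49) and 1org-126 (0.25). At day 10, 1 of the 7, 2org-214, was lower as deposited and after centring. The matching of IDs to the list left out further probes of these microRNAs. On the day 3 arrays 1org-199-as was at 1.81 and 1.63, 1org-199-s at 1.53 and 1.14, and 1org-1d at 0.45 and 1.55. Probes 1org-126* (-0.004 and 1.09) and 1org-1b (-0.265 and 1.90) had opposite signs there. Both myeloid and erythroid probes, 2org-223 (-2.01) and 1org-144 (-2.23), were lower overnight as deposited, beside 73.1% of all probes, and neither was after centring. At day 3 they stood at -0.24 and 1.03, and 1org-144 was called higher as deposited, beside 38.0% of all probes. After centring they stood at -1.05 and 0.21, and 2org-223 was called lower, beside 19.9% of all probes. At day 10 they stood at -1.44 and -0.66, and 2org-223 was called lower as deposited (17.0% of all probes) but not after centring. The part of other cell types in the members' values was not tested.

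Likeness to each member was measured as the root mean square difference of the turned log2 ratios over the 5 arrays, as deposited. The nearest probes to 1org-125b were 1org-1d (0.16) and 1org-34b (0.25), and those nearest to miR-10b were 1org-141 (0.25) and 1org-34a (0.27). For 1org-125a they were 1org-98 (0.46) and 1org-29b (0.55), for miR-10a 2org-199a (0.51) and 2org-219 (0.62), and for 2org-100 1org-293 (0.56) and 2org-223 (0.56). For miR-99b they were 2org-200c (0.66) and 1org-206 (0.91), both of which also had opposite signs on the arrays of each dye pair. Among the 170 other probes, miR-10b ranked 19th nearest to miR-10a, miR-99b 159th nearest to 2org-100, and 1org-125b 71st nearest to 1org-125a. In these arrays the family mates were thus not each other's nearest probes.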

How the data were processed

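The authors deposited 1 log ratio per probe and array, with no missing value, in a table; how they scanned and normalized the arrays is not given here, nor are log base and numerator. These deposited ratios were taken as log2 of Cy5 over Cy3. Arrays with activated RNA in channel 1 were multiplied by -1. The 7 probes for other small RNAs were left out. The arrays of a dye pair were averaged, and the overnight value and the 2 pair means were set against 0 in limma (version 3.58.1, R version 4.3.3; lmFit, eBayes, 2-sided, Benjamini-Hochberg over 171 probes, threshold 0.05). Naive RNA was on every array, so the spread of the control is left out.

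Within a time a probe was called where its mean log2 ratio was 1 or more in size (2-fold) and both arrays lay on one side of 0. Alternatives were centring, scaling to the same median absolute log ratio, limma over 5 arrays with terms for time and dye, a 1.5-fold rule, the dye effect taken off overnight, matching by dye (chosen after seeing the data), and leaving out each array. The limma code was tested on simulated data. Members, lists and rules were chosen with earlier results of these data known. Named were all members, all probes whose ID matched a list entry and the 2 nearest probes of each member.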

Additional observations from a re-analysis of the deposited data

Results flagged for a closer look

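In 3 of 6 members limma over 5 arrays called the response at day 10 lower than that at day 3, beside 43.9% of all probes. For 1org-125b (difference -2.25) and 1org-10b (difference -1.45) both arrays were below 0 at day 10 and both were above 0 at day 3. That pattern was found in 24.6% of all probes, and after centring in 7.02%, with 1org-125b the 1 member among them. Probe 2org-100 (difference -1.62) was singled out by the day 10 minus day 3 term of limma over 5 arrays, though its 2 pairs overlapped. The adjusted p-values were 0.00218, 0.0444 and 0.0251 in the order named. The array medians moved in the same direction, with a mean over the pair of -0.45 at day 10 and 0.81 at day 3. After centring the differences were -0.99, -0.19 and -0.36 (adjusted p = 0.146, 0.852 and 0.673). With arrays scaled to the same median absolute log ratio the adjusted p-values were 0.092, 0.201 and 0.141. None passed in either setting, and the part of the array offset in these differences was not tested further.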

How the results depend on the processing

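No member passed over the 3 times in any alternative run, leave-one-out included. In limma over 5 arrays with a common mean and dye term, 3.51% of all probes were higher and 2.34% lower as deposited, and 0 passed after centring. With arrays scaled, 2 of all 171 probes passed the test over the 3 times. Overnight, 5 members were lower as measured; after centring 1 was lower and 1 higher, with the dye effect off and centring 1 was lower, limma over 5 arrays called 2 lower (none after centring or scaling), and the 1.5-fold rule called 1 higher. Of all probes, 73.1% were lower overnight as measured. After centring 4.09% were lower and 21.6% higher, and with the dye effect off and centring 7.6% were lower. The overnight values that changed sign were those of 1org-125a after centring (0.18) and 2org-100 with the dye effect off and centring (0.015). With the dye effect off, 1org-99b also changed sign, from 0.91 to -0.96. None of these was 2-fold from naive cells after the change. At day 3 the 1 member called higher (38.0% of all probes) became 0 after centring (15.2%) or scaling and 3 by the 1.5-fold rule. Without either array of that pair, 1 to 4 were higher and 1 to 2 lower. At day 10 the 2 lower (17.0% of all probes) became 1 after centring (4.09%) and 3 after scaling or by the 1.5-fold rule. Without either array of that pair, 2 to 3 were lower and 0 to 1 higher. At day 10 against day 3 the 2 lower (41.5% of all probes) became 0 after centring (13.5%) and 2 to 4 without 1 array. Matched by dye, an alternative chosen after seeing the data, 5 were lower (59.1% of all probes), and 0 after centring as well (15.8%). Differences of at least 2-fold between members numbered 1, at day 10 (33.6% of all pairs of microRNA probes), and 1 to 5 without 1 array. These single-array counts keep the dye effect, and no same sign is required in them. No share of all probes is given for the 1.5-fold and single-array counts, or for scaled ones except the test over the 3 times. Those counts have no background beside them. Replicate numbers were given in accession order and pair no arrays; the dye orientation, shared by days 3 and 10, enters as the dye term.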
